A study of Mus musculus with 79 samples.

Results

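The F-box, TRIM and ASB genes encode substrate receptors and single-chain enzymes of the ubiquitin ligases, and 109 of them were followed in mouse muscle lacking either of 2 clock-related factors. Members were all genes whose symbol begins with Fbxl, Fbxo, Fbxw, Trim or Asb followed by a digit, apart from Fbxo32, Fbxo30, Fbxo21 and Trim63. The RORA tables list 14253 genes and hold 107 members, the PER2 tables list 12952 genes and hold 102, and 100 members are in both. The RORA members were 17 Fbxl, 23 Fbxo, 8 Fbxw, 42 Trim and 17 Asb genes, and the PER2 members 14, 24, 8, 40 and 16. Asb17, Fbxl12os, Fbxl7, Fbxl8, Trim46, Trim6 and Trim66 were listed in the RORA tables alone, and Fbxo18 and Trim43c in the PER2 tables alone. Fbxo18 is a RefSeq synonym of Fbh1, the name under which the RORA tables list it, so that name fell outside the rule there.

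The 79 libraries came from muscle of RORA MKO mice (18 libraries) with CTRL mice (18), and of PER2 MKO mice (24) with CTRL mice (19). Muscles were collected through the day at 0, 4, 8, 12, 16 and 20 h of zeitgeber time (ZT), which counts hours from lights on. MKO is a muscle-specific knockout, and the labels give the CTRL genotype as WT. Each knockout has its own CTRL libraries, with 3 RORA MKO and 3 CTRL mice per ZT, 4 PER2 MKO mice per ZT, and 3 CTRL mice per ZT in the PER2 set except 4 at ZT20. The sources used here do not give the driver of the muscle-specific deletion, the strain, age or sex of the mice, or the muscle sampled. RORα is a nuclear receptor that activates transcription, and PER2 represses the activators of the circadian clock.

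F-box proteins bind SKP1 and place a substrate on a CUL1 ligase, and Fbxl, Fbxw and Fbxo members differ in the domain that holds the substrate. ASB proteins do the same on CUL5 through elongins B and C, by way of a SOCS box, with ankyrin repeats to hold the substrate. TRIM proteins carry a RING domain of their own, which recruits the ubiquitin-loaded enzyme directly. In muscle such ligases turn over sarcomere proteins, insulin signalling adaptors and clock proteins, and several ASB and TRIM genes are expressed mainly in striated muscle.

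The tables hold the authors' comparisons of MKO with CTRL and no value per library, so depth is unknown and levels are means over all libraries. RORA fold changes are MKO over CTRL. The PER2 tables do not state which genotype is on top, so their values are given only as positive or negative. All 8 fibre markers were measured, at mean normalized counts of 184 to 792710. Rora was at -1.83, -1.51, -1.96, -1.85, -1.71 and -1.82 on the log2 scale at ZT0 to ZT20 in the authors' deposited RORA tables, lower in MKO at every ZT. Per2 was at -0.16, 0.46, 0.51, 0.70, 0.38 and 0.31 in the authors' deposited PER2 tables, with an adjusted p under 0.05 at ZT12 only. The sources used here do not say which part of Per2 was deleted, so reads outside it check nothing. In bulk muscle, fewer cells of a type and less RNA per cell cannot be told apart.

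Members differed widely in level. Per kilobase of transcript, Asb2 led with a mean normalized count of 2419, followed by Trim54 at 2353, Asb5 at 1285, Fbxo40 at 1092, Asb11 at 848, Asb10 at 754, Asb14 at 686 and Trim72 at 622. Of these 8 genes 5 belong to the ASB family. In all, 77 of the 107 RORA members had a mean normalized count of at least 50 and 30 lay below it. Of the 102 PER2 members, 98 reached 1 CPM.

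Loss of RORα was accompanied by changes in 36 of the 107 members, 15 higher and 21 lower in RORA MKO (33.6%). The call rests on an inverse-variance weighted mean over the 6 ZT with a Benjamini-Hochberg adjusted p under 0.05, and in the same fit 38.2% of all genes were called, 18.9% higher and 19.3% lower. The members as a whole thus stood near the background. Their median mean log2 fold change was -0.0016 against 0.0043 over all genes, and the median size was 0.045 against 0.059. At a mean normalized count of 50 or more, 32 of 77 members were called against a background of 53%, and below it 4 of 30 against 10.5%. At all 6 ZT, 11 members passed the authors' own adjusted p, 4 higher and 7 lower, against 8.64% of all genes, 3.95% higher and 4.69% lower. The single tables called between 23 members at ZT16 (20.7% of all genes) and 30 at ZT0 (28.1%). The tables for ZT4, ZT8 and ZT20 called 29 members each (29%, 27.8% and 32.2% of all genes), and the one for ZT12 called 24 (22.1%).

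**Figure D1:**
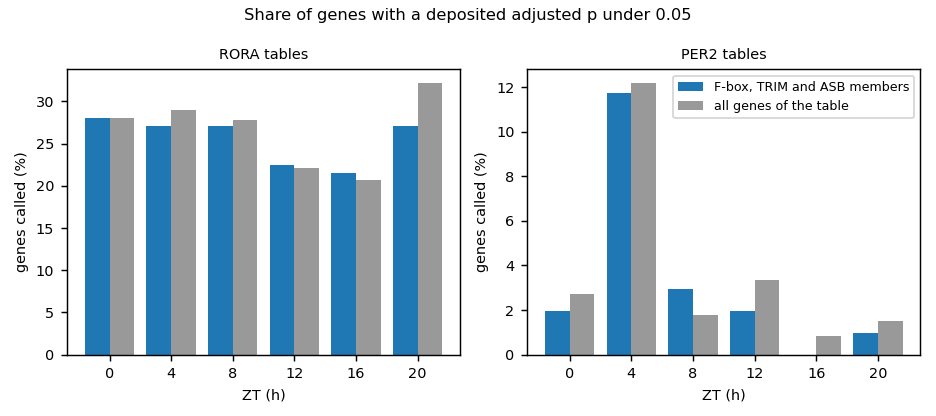
Bars give the share of genes (%) with an authors' adjusted p under 0.05 at each ZT (h), for the members and for all genes of the table, in the RORA tables (left) and the PER2 tables (right). Members follow the whole table at each ZT, with 28.1% of all genes at ZT0 in the RORA tables and 12.2% at ZT4 in the PER2 tables.

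Fbxl4 had the lowest mean in RORA MKO among the members at 50 or more normalized counts. It encodes a mitochondrial F-box protein that restrains mitophagy, and its loss in humans depletes mitochondrial DNA. The authors' deposited log2 fold changes of Fbxl4 were -0.95, -0.71, -0.78, -0.73, -0.74 and -0.78 at ZT0 to ZT20. All 6 lay below -0.7, with ZT0 the lowest, and the deposited error was 0.056 at ZT0. The mean over the 6 ZT was -0.78 ± 0.088 (SD, n = 6 ZT; adjusted p = 2.65e-237), so that its level fell by 41.8% in RORA MKO relative to CTRL. No Fbxl member was higher in RORA MKO by the test, against 18.9% of all genes. Only 9 of the 17 Fbxl members had 50 or more normalized counts. Of these 9, 2 were called, both lower, against 53% of all such genes called in either direction. Below 50 counts 10.5% of all genes were called. Fbxl22, a protein of the cardiac Z-disc, had a mean of 0.028 ± 0.088 (adjusted p = 0.795), at a mean normalized count of 32.1.

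Among the Fbxo genes 4 were higher and 7 lower in RORA MKO. At 50 or more normalized counts 9 of 17 were called (52.9%), near the 53% of all such genes. Fbxo31, which marks cyclin D1 for degradation, averaged 0.18 ± 0.077 (adjusted p = 1.81e-31). Fbxo45, a partner of the neuronal ligase MYCBP2, averaged 0.18 ± 0.021 (adjusted p = 5.52e-21). The authors' deposited values of Fbxo45 were 0.18, 0.20, 0.15, 0.19, 0.21 and 0.16, nearly level through the day. Fbxo22, a receptor for histone demethylases, averaged 0.087 ± 0.055, and Fbxo36 0.27 ± 0.20 at a mean normalized count of only 17.7. The lowest of the Fbxo genes was Fbxo8, whose protein carries a Sec7 domain of Arf exchange factors, with a mean of -0.22 ± 0.078 (adjusted p = 2.2e-17). Fbxo10, a receptor for the survival protein BCL2, averaged -0.18 ± 0.14 at a mean normalized count of 42.7. Without ZT0 its adjusted p was 0.0836. Fbxo34 averaged -0.14 ± 0.12 and Fbxo11, a receptor for BCL6, -0.13 ± 0.067. Fbxo40, Fbxo9 and Fbxo3 were lower by less, at -0.06, -0.053 and -0.053. Fbxo7, a Parkinson's disease gene that acts in mitophagy, averaged 0.019 ± 0.051 and was not called (adjusted p = 0.698).

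Of the 8 Fbxw genes 1 was higher and 1 lower in RORA MKO. At 50 or more normalized counts 2 of 6 were called, against 53% of all such genes. Fbxw4 averaged 0.13 ± 0.043 and Fbxw2 -0.037 ± 0.039 (adjusted p = 4.63e-08 and 0.0342). The call of Fbxw2 was lost without ZT0, ZT8 or ZT20 (adjusted p = 0.18, 0.134 and 0.139). Fbxw7, the receptor for cyclin E and MYC, was at -0.0048 ± 0.071 (adjusted p = 0.926). Fbxw11, a beta-TrCP receptor that recognises phosphorylated PER proteins and IκB, was at -0.011 ± 0.062 (adjusted p = 0.761).

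**Figure D2:**
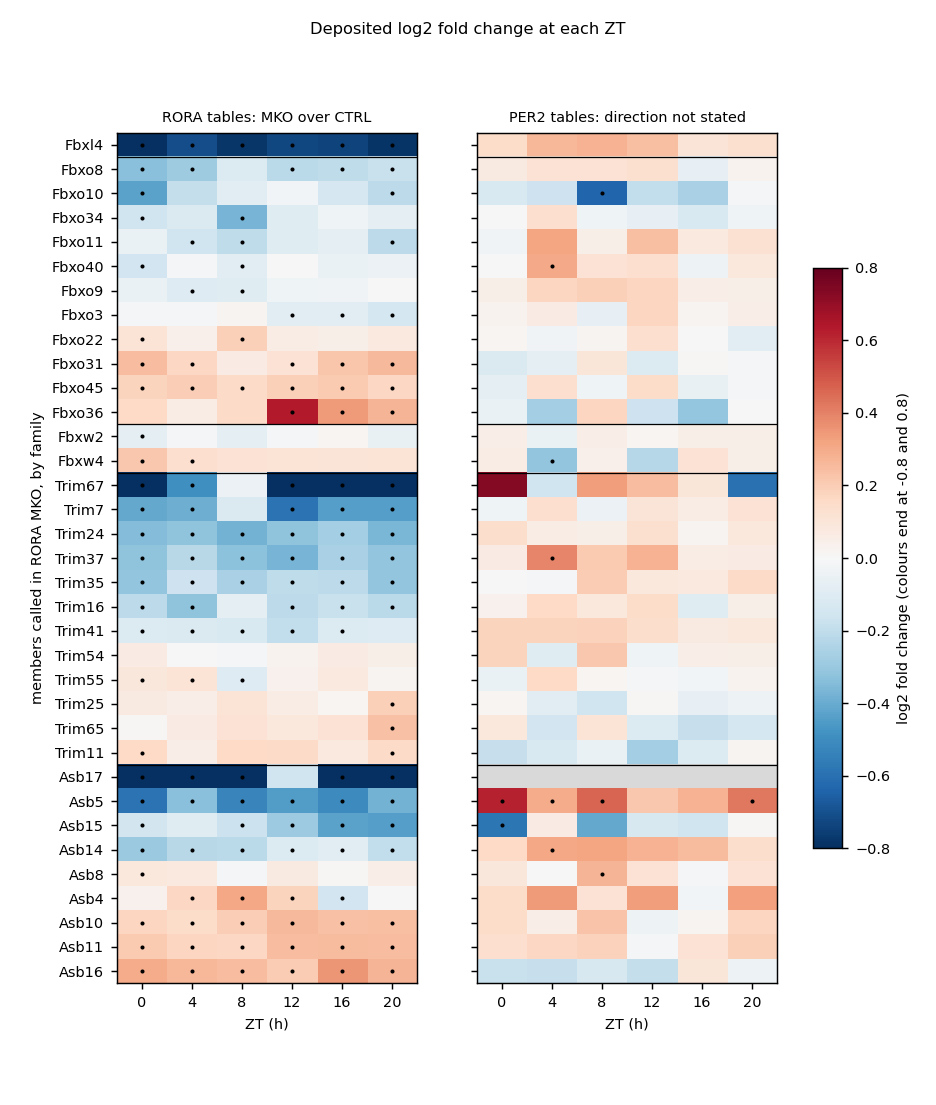
Each row is a member called in RORA MKO, grouped by family and ordered by mean within it, and each column a ZT (h); colour gives the deposited log2 fold change, with MKO over CTRL in the RORA tables (left) and a direction that is not stated in the PER2 tables (right). Dots mark an authors' adjusted p under 0.05 and grey a gene not listed; Fbxl4 is at or below -0.7 at every ZT on the left, and most PER2 cells carry no dot.

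Of the 42 TRIM genes 5 were higher and 7 lower in RORA MKO. At 50 or more normalized counts 11 of 29 were called (37.9%), against 53% of all such genes. Trim7 encodes the partner of glycogenin, the primer of glycogen. Its authors' deposited values were -0.41, -0.39, -0.11, -0.59, -0.44 and -0.44, with ZT8 nearest to zero and ZT12 the lowest. The mean was -0.40 ± 0.16 (adjusted p = 2.67e-54). Trim24, a coregulator of nuclear receptors, had authors' deposited values of -0.35, -0.32, -0.38, -0.32, -0.27 and -0.36. They stayed between -0.38 and -0.27, and the mean was -0.33 ± 0.037 (adjusted p = 1.69e-79). Trim28 and Trim33, of the same subfamily of transcriptional coregulators, averaged 0.021 ± 0.077 and -0.06 ± 0.12 and were not called, although Trim28 was called without ZT8 (adjusted p = 0.0413) and Trim33 without ZT0, ZT4 or ZT16 (0.0404, 0.0361 and 0.0166). Trim37, a centrosome and peroxisome ligase mutated in mulibrey nanism, averaged -0.30 ± 0.053 (adjusted p = 6.27e-13). Trim35 averaged -0.24 ± 0.06, Trim16, which acts in the autophagy of damaged membranes, -0.20 ± 0.08, and Trim41 -0.13 ± 0.036. On the higher side Trim11 averaged 0.13 ± 0.049 and 2 genes of RNA virus sensing, Trim65 and Trim25, averaged 0.10 ± 0.074 and 0.082 ± 0.061. Without ZT20 neither Trim65 nor Trim25 was called (adjusted p = 0.153 and 0.0907).

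Unlike Trim7, the muscle genes Trim54, Trim55, Trim72 and Trim32 averaged between -0.016 and 0.038 in RORA MKO over CTRL. Trim54 and Trim55, paralogs of Trim63 that bind microtubules and titin, averaged 0.032 ± 0.034 and 0.038 ± 0.078 (adjusted p = 0.0471 and 0.0176). Trim54 lost its call when the median of each table was subtracted (adjusted p = 0.0731) or without any 1 of ZT0, ZT12, ZT16 and ZT20 (0.065 to 0.199), and Trim55 without ZT0, ZT4 or ZT16 (0.156, 0.194 and 0.0981). Trim72, which seals breaks in the muscle membrane, averaged 0.0095 ± 0.095 (adjusted p = 0.617). Trim32, a limb-girdle dystrophy gene, averaged -0.016 ± 0.071 (adjusted p = 0.872). Of the 4 genes the rule leaves out, Fbxo32 and Trim63 averaged -0.55 ± 0.31 and -0.022 ± 0.20, and Fbxo21 and Fbxo30 0.23 ± 0.13 and -0.085 ± 0.061.

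In the ASB family 9 of 17 genes were called, 5 higher and 4 lower in RORA MKO. At 50 or more normalized counts 8 of 16 were called (50%), near the 53% of all such genes. Asb5, known from growing collateral arteries in the rabbit, was the lowest of those at 50 or more normalized counts. Its authors' deposited values were -0.59, -0.33, -0.53, -0.45, -0.51 and -0.38. All 6 lay at or below -0.33, and the mean was -0.46 ± 0.097 (adjusted p = 1.43e-113), so that its level fell by 27.5% in RORA MKO relative to CTRL. Asb15, a muscle gene that acts on myoblast growth in cell culture, had authors' deposited values of -0.15, -0.099, -0.17, -0.29, -0.43 and -0.44. The 3 values from ZT12 on were lower than the 3 before it, and the mean was -0.26 ± 0.15 (adjusted p = 8.24e-13). The change of Asb15 with ZT did not pass Cochran's Q in the main setting (adjusted p = 0.0556). It passed in some others, such as a minimum count (0.0393) and a fitted cosine of 24 h (0.0164). Asb14 averaged -0.19 ± 0.076 (adjusted p = 1.16e-37).

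Asb16 moved the other way. Its authors' deposited values were 0.30, 0.26, 0.25, 0.20, 0.35 and 0.27, all at or above 0.20. The mean was 0.27 ± 0.051 (adjusted p = 9.07e-52), 20.8% higher in RORA MKO than in CTRL. Asb11, whose zebrafish counterpart acts on the Notch ligand Delta, averaged 0.22 ± 0.039, and Asb10, a glaucoma candidate gene in humans, 0.21 ± 0.044. Asb11 and Asb10 were called by the authors at all 6 ZT. Asb8 and Asb4 averaged 0.046 ± 0.042 and 0.088 ± 0.16 (adjusted p = 0.00844 and 0.0223). Without ZT0 the adjusted p of Asb8 was 0.0619, and without ZT4, ZT8 or ZT12 that of Asb4 was 0.14, 0.329 or 0.121. Asb2, the receptor for filamins and the gene with the highest level per kilobase, averaged 0.014 ± 0.081 (adjusted p = 0.856). Its authors' deposited values were -0.022, -0.063, 0.0061, 0.17, 0.0028 and -0.011, with ZT12 alone past the authors' adjusted p. Asb12 and Asb18 averaged 0.037 ± 0.052 and -0.036 ± 0.045 and were not called.

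**Figure D3:**
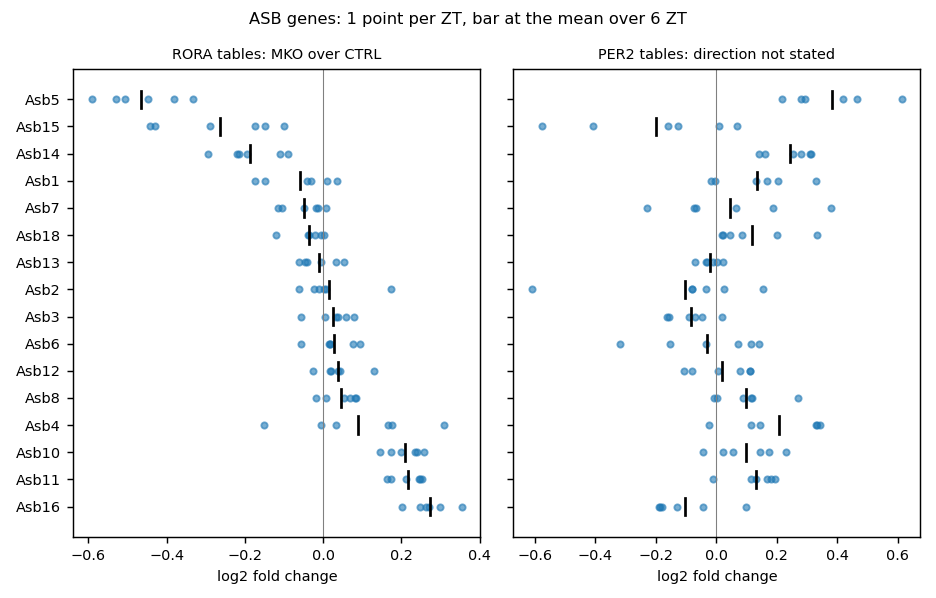
Points give the deposited log2 fold change of each ASB gene with at least 50 normalized counts, 1 point per ZT, and black bars the mean over 6 ZT; the RORA tables (left) run as MKO over CTRL and the PER2 tables (right) have no stated direction. Asb5 has all 6 points below zero on the left and all 6 above zero on the right, and Asb16, Asb11 and Asb10 have all 6 points above zero on the left.

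The 2 members with the lowest means were scarcely expressed. Asb17, known as a testis gene, had a mean normalized count of 3.69, and Trim67, known from the brain, 5.63. The authors' deposited values of Asb17 were -3.47, -1.49, -0.92, -0.16, -2.58 and -1.74, with an error of 0.84 at ZT4. Those of Trim67 in the authors' deposited tables were -1.58, -0.49, -0.047, -0.96, -1.21 and -1.40, with an error of 0.64 at ZT12. Both were below zero at every ZT and passed the test of the mean (adjusted p = 1.23e-06 and 8.07e-06), but their sizes rest on few reads. The call of Trim67 was lost without ZT0 and ZT20 (adjusted p = 0.0826).

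The RORA effect changed with ZT for 14 of the 107 members by Cochran's Q, against 11% of all genes. Trim7 led (adjusted p = 0.000123), and without ZT8 its adjusted p was 0.581. Fbxo40, which turns over the insulin signalling adaptor IRS1 in muscle, had authors' deposited values of -0.15, -0.014, -0.084, -0.0061, -0.054 and -0.05. ZT0 stood lowest, and ZT4 and ZT12 were near zero (adjusted p of Q = 0.000716). Without ZT0 that adjusted p was 0.442. Trim72 had authors' deposited values of 0.12, -0.11, -0.092, 0.0082, 0.094 and 0.037. It was higher in MKO at ZT0 and lower at ZT4 by the authors' adjusted p (adjusted p of Q = 0.00328), and without ZT4 the value was 0.061.

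Fbxo3 had authors' deposited values of -0.012, -0.016, 0.023, -0.086, -0.088 and -0.14, near zero from ZT0 to ZT8 and lower from ZT12 to ZT20. Its adjusted p of Q was 0.001, and 0.0868 without ZT20. Asb14 had authors' deposited values of -0.29, -0.22, -0.21, -0.11, -0.089 and -0.20, all below zero, lowest at ZT0 and nearest to zero at ZT16. Its adjusted p of Q was 0.00504, 0.148 without ZT0 and 0.0705 without ZT16. Asb4, expressed in endothelium, had authors' deposited values of 0.033, 0.17, 0.31, 0.18, -0.15 and -0.0042. It was highest at ZT8 and below zero at ZT16 and ZT20 (adjusted p of Q = 0.0055), and without ZT8 or ZT16 the adjusted p was 0.0935 or 0.0873. Beside Asb4, 7 of 8 endothelial markers were higher in RORA MKO (18.9% of all genes). All 8 had a mean normalized count of at least 70.4, and 53% of all genes at 50 or more were called in either direction. The medians of these markers were 0.13, 0.066, 0.27, 0.13, 0.053 and 0.25 at ZT0 to ZT20. At ZT20 the median was thus close to that at ZT8, while Asb4 was near zero. The part of endothelial cells in Asb4 was not tested. Fbxo31 had authors' deposited values of 0.25, 0.17, 0.069, 0.12, 0.22 and 0.26, all above zero and smallest at ZT8 (adjusted p of Q = 0.0109, 0.22 without ZT8).

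**Figure D4:**
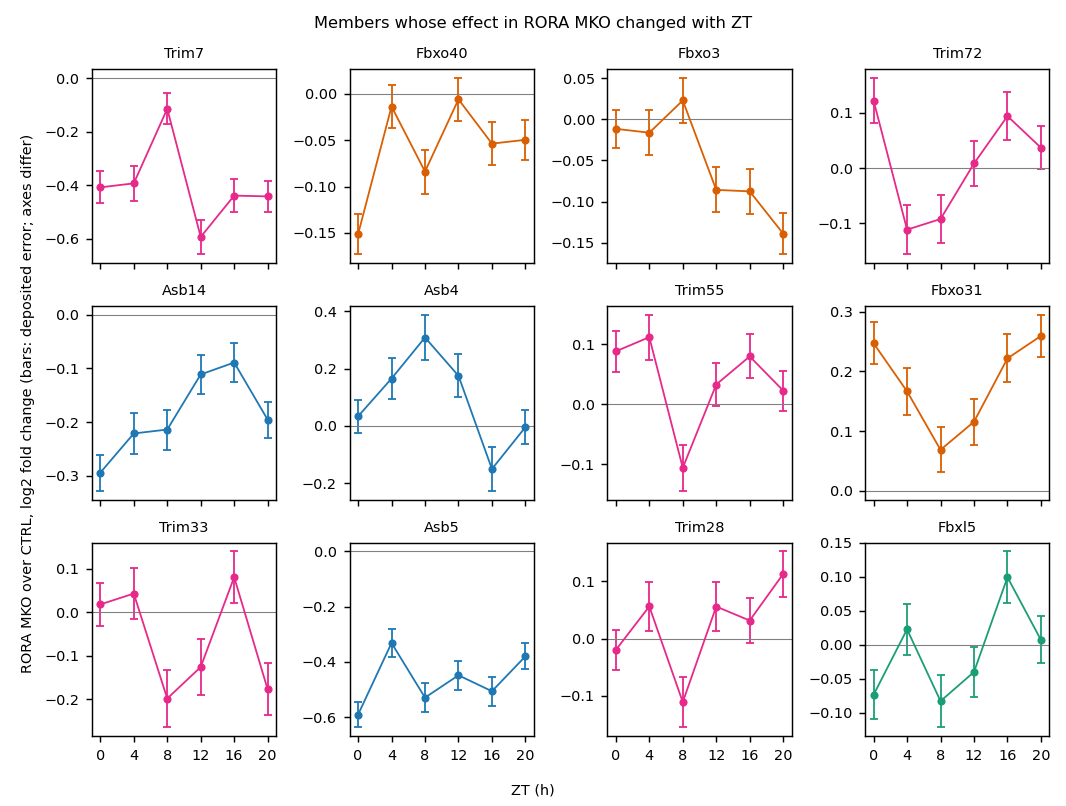
Points give the deposited log2 fold change of RORA MKO over CTRL at each ZT (h), with bars for the deposited error, for the 12 members with at least 50 normalized counts whose effect changed with ZT. Vertical axes differ between panels; Trim7 is nearest to zero at ZT8, Asb14 and Asb5 stay below zero and Fbxo31 stays above it.

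Markers of fibre types and of other cells moved too in the RORA tables. Of the 10 fast fibre markers 6 were lower and 1 was higher on the mean and 7 changed with ZT, with medians of -0.12 to -0.068 at the 6 ZT. They lay at mean normalized counts of 29960 to 792710. At 50 or more counts 53% of all genes were called on the mean, and 11% of all genes changed with ZT. The 9 slow fibre markers had a median of 0.70 at ZT0 and -0.25 at ZT4, with 1 of 9 called on the mean and 4 of 9 changing with ZT. The 8 Schwann cell markers had a median of 0.74 at ZT20, and the 8 white adipocyte markers -0.50 at ZT0 and 0.44 at ZT20. Without ZT0 and ZT20, 5 members still changed with ZT, all 5 among the 14. Leaving tables out also weakens the test for every gene, and the share of all genes in this setting is not given here. That count therefore does not set the members apart from other genes or from these markers. The part of these fibres and cells in the member values was not tested.

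Promoter windows of RefSeq, 250 bases before and 50 after a start site on GRCm38.p6, were at hand for 85 of the 109 members, as 119 windows. Both strands were searched for 3 sets of letters. TAGGTCA or TGGGTCA, the end of the site that ROR receptors bind, was in 8 of 119 member windows (6.72%) and in 6.45% of all 32851 windows. CACGTG, the E-box of the clock activators, was in 10 member windows (8.40%) and in 7.15% of all windows. TATTTATA or TAAAAATA, the core of the MEF2 site, was in 9 member windows (7.56%), which belong to Asb12, Asb14, Asb16, Asb18, Asb5, Fbxw7 and Trim30d, and in 4.30% of all windows. The MEF2 letters were chosen after the windows had been seen. A match is a description of letters and not of binding.

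The windows of Fbxl4, of ASB genes on both sides and of Trim72 are given 5′ to 3′ on the strand of the gene, with matches in capitals. Fbxl4 lies on the plus strand at chr4:22357293-22357592, Asb14 on the plus strand at chr14:26894364-26894663, Asb16 on the plus strand at chr11:102268501-102268800, Asb15 on the plus strand at chr6:24527894-24528193 and Trim72 on the plus strand at chr7:128004128-128004427 (all GRCm38.p6). Capitals mark the MEF2 core in Asb14 and Asb16, the E-box in Asb15 and the ROR letters in Trim72, and Fbxl4 has none of the letters searched. The window of Asb10, which was higher in RORA MKO, has none of these letters either and is not printed.
Fbxl4: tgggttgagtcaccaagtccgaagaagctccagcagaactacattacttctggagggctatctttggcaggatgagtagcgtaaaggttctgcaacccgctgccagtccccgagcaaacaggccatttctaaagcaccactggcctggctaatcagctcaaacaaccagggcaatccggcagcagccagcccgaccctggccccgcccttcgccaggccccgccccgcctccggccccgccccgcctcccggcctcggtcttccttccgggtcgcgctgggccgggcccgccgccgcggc
Asb14: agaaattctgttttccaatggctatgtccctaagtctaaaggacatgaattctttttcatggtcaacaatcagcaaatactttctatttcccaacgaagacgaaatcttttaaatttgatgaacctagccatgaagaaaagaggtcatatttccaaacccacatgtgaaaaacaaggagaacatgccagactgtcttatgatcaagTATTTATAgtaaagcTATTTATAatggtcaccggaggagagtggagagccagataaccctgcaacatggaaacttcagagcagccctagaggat
Asb16: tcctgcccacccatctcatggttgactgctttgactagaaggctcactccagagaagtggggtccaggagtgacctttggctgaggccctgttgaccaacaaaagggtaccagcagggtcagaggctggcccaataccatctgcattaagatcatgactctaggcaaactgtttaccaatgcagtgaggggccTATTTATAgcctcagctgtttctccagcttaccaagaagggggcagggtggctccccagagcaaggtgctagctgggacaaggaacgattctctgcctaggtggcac
Asb15: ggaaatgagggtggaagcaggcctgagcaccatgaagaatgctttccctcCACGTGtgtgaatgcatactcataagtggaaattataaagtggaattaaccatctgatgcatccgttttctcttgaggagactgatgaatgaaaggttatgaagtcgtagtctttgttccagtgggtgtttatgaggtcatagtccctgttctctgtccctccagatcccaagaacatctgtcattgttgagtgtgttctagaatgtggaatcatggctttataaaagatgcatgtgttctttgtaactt
Trim72: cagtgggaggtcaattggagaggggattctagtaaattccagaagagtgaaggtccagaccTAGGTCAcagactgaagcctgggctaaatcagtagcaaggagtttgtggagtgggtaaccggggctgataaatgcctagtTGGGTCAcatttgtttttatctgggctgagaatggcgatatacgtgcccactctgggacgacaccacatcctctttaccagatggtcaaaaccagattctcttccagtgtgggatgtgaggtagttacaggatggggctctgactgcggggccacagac
Asb14, lower in RORA MKO, and Asb16, higher in it, thus both hold the MEF2 letters, and Trim72, which holds the ROR letters at 2 places, was not called on the mean. The ROR letters also stand in windows of Fbxl19, Fbxo40, Fbxo44, Trim13, Trim30a and Trim30d, of which Fbxo40 was lower in RORA MKO. Its mean was only -0.06 and was not called by limma (adjusted p = 0.106). The Fbxo40 window at chr16:36979087-36979386 holds the letters, and the one at chr16:36990418-36990717 does not.

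Of the 102 members in the PER2 tables, 24 passed Stouffer's test of the mean over 6 ZT, 18 with a positive and 6 with a negative deposited log2 fold change (23.5%). Over all genes 21.6% passed, 10.9% positive and 10.6% negative. The median of the members' means was 0.019, against -0.016 over all genes. The called Fbxl, Fbxo and Fbxw genes were 3, 5 and 2 positive with 1 negative Fbxo gene, the TRIM genes 3 positive and 3 negative, and the ASB genes 5 positive and 2 negative. By the authors' own adjusted p, 16 members were called at any ZT (15.3% of all genes). At ZT4 the authors' tables called 12 of them (12.2% of all genes) and at ZT8 they called 3 (1.78%). ZT0 and ZT12 had 2 each (2.7% and 3.34%), ZT20 had 1 (1.52%) and ZT16 had 0 (0.811%). The fold changes at ZT4 and ZT12 went with transcript length over all genes (Spearman's rho 0.50 and 0.43 across 12333 genes, which share libraries and are not replicates), and among 101 members the values were 0.29 and 0.23. With GC content the values were -0.34 and -0.42 over all genes, and -0.47 and -0.39 among the members. At the same times the 5 red blood cell markers had medians of -1.35 (ZT4) and -1.01 (ZT12), and all 5 were negative on the mean. Leaving out both times, 12 members were called, 9 positive and 3 negative, against 10.6% of all genes (5.33% positive and 5.32% negative). With limma on the 6 values 8 members were called, against 8.43% of all genes. Asb5, Asb14, Fbxw7, Fbxw11, Fbxl4, Trim41 and Trim26 kept their calls under limma, and the other called members lost theirs.

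Asb5 had the largest called value. Its authors' deposited values were 0.61, 0.29, 0.46, 0.22, 0.28 and 0.42 at ZT0 to ZT20 in the PER2 tables. All 6 were positive, with ZT0 the highest, and 4 passed the authors' adjusted p. The mean was 0.38 ± 0.15 (SD, n = 6 ZT; adjusted p = 8.72e-20). Asb14 had authors' deposited values of 0.16, 0.31, 0.31, 0.28, 0.25 and 0.14, all positive, and a mean of 0.24 ± 0.074 (adjusted p = 2.14e-08). Asb15 averaged -0.20 ± 0.25 (adjusted p = 0.0256), and without ZT0 or ZT8 the adjusted p was 0.25 or 0.144. Asb16 averaged -0.11 ± 0.11 (adjusted p = 0.00716), and without ZT4 and ZT12 the adjusted p was 0.332. Asb11 and Asb8 averaged 0.13 ± 0.075 and 0.097 ± 0.10, and both were called (adjusted p = 0.0406 and 0.00521). The call of Asb11 was lost without any 1 of ZT0, ZT4, ZT8, ZT16 and ZT20, and that of Asb8 without ZT8 (adjusted p = 0.148). Asb2 had authors' deposited values of 0.024, 0.16, -0.081, -0.61, -0.036 and -0.081, of which ZT12 alone passed, and was not called on the mean. Asb10, Asb4, Asb12 and Asb18 averaged 0.097, 0.21, 0.02 and 0.12 and were not called. Asb4 was called after the median of each table was subtracted (adjusted p = 0.0441) and without ZT16 (0.0277), and Asb10 once the trend on length and GC content was removed (0.0131).

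Fbxw7 and Fbxw11 were the called Fbxw genes. The authors' deposited PER2 values of Fbxw7 were 0.14, 0.51, 0.23, 0.32, 0.075 and 0.18. All were positive, and the highest 2, at ZT4 and ZT12, passed the authors' adjusted p. The mean was 0.24 ± 0.16 (adjusted p = 2.57e-08). Fbxw11 had authors' deposited values of 0.06, 0.17, 0.21, 0.18, 0.20 and 0.22, smallest at ZT0, and a mean of 0.17 ± 0.058 (adjusted p = 1.61e-07). Fbxl4 averaged 0.19 ± 0.075 (adjusted p = 2.23e-05). Fbxo5, which restrains the anaphase-promoting complex, averaged 0.25 ± 0.20, and Fbxo10 -0.23 ± 0.21, and neither was called without ZT4 and ZT12 (adjusted p = 0.466 and 0.0568). Fbxo40 and Fbxo11 averaged 0.10 ± 0.12 and 0.13 ± 0.13, and their calls too were lost without these times (adjusted p = 0.627 and 0.631).

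Trim37, Trim41 and Trim26 were the positive TRIM genes, at means of 0.18 ± 0.14, 0.14 ± 0.051 and 0.14 ± 0.037. Trim34a, Trim11 and Trim28 were the negative ones, at -0.24 ± 0.22, -0.12 ± 0.10 and -0.075 ± 0.08. Without ZT4 and ZT12, Trim37, Trim11 and Trim28 were no longer called (adjusted p = 0.341, 0.376 and 0.616). The call of Trim28 was also lost after subtracting the median of each table (0.0825), and without any 1 of the 6 ZT but ZT16, that of Trim11 without any 1 but ZT8 and ZT20. Trim34a lies in a cluster with Trim12a, Trim12c, Trim30a, Trim30d, Trim5 and Trim6, related copies between which reads may have been split, so its value is uncertain, and its call was lost without ZT0, ZT8, ZT12 or ZT20 (adjusted p = 0.098, 0.132, 0.0559 and 0.116). The interferon-related Trim21, Trim25 and Trim30a averaged -0.091 ± 0.12, -0.054 ± 0.065 and -0.13 ± 0.18 and were not called. Without ZT4 and ZT12, however, Trim30a was called as negative by Stouffer's test (adjusted p = 0.0468). Of 20 interferon response genes 14 were negative (10.6% of all genes), with a median of -0.27, and their part in the TRIM values was not tested. In the RORA tables Trim21 and Trim30a averaged 0.022 ± 0.084 and 0.087 ± 0.049 without a call, beside 5 of 24 interferon response genes that were higher (18.9% of all genes). Trim30a was above zero at all 6 ZT there and was called by Stouffer's sum and by limma (adjusted p = 0.00368 and 0.0281). The muscle genes Trim54, Trim55, Trim72, Trim7 and Trim32 had PER2 means of 0.061, 0.019, 0.038, 0.054 and -0.048, none of them called. With the trend on length and GC content removed Trim54 was called (adjusted p = 0.00875). Trim24, Fbxo31, Fbxo45, Fbxo7 and Fbxl22 were not called either, at 0.08, -0.033, 0.017, -0.071 and -0.21. Only without ZT0 was Fbxl22 called by Stouffer's test (adjusted p = 0.0154).

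No PER2 member changed its effect with ZT by Cochran's Q at an adjusted p under 0.05, against 0.0463% of all genes. At an unadjusted p under 0.05 there were 10 of 102 members, against 8.08% of all genes, and the smallest adjusted p among members was 0.328.

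Both knockouts were set side by side for the 100 members in both sets. Of these, 15 were called on the mean in both (14.4% of all genes in both sets). They make up 42.9% of the 35 called in RORA and 62.5% of the 24 called in PER2, against 33% and 64.5% over all genes in both sets, and 6 of the 15 are ASB genes. The deposited signs were opposite for 11 of the 15 (73.3%; 12.3% of all genes in both sets were called with opposite signs), among them Fbxl4, Asb5, Asb14, Asb16, Trim37 and Trim41, and opposite for 85.4% of the 1628 genes called in both. Asb15, Asb11, Asb8 and Fbxo10 had the same deposited sign in both, as had 2.09% of all genes. Because it is unknown which way the PER2 tables run, an opposite sign does not say that the knockouts moved a gene in opposite ways.

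**Figure D5:**
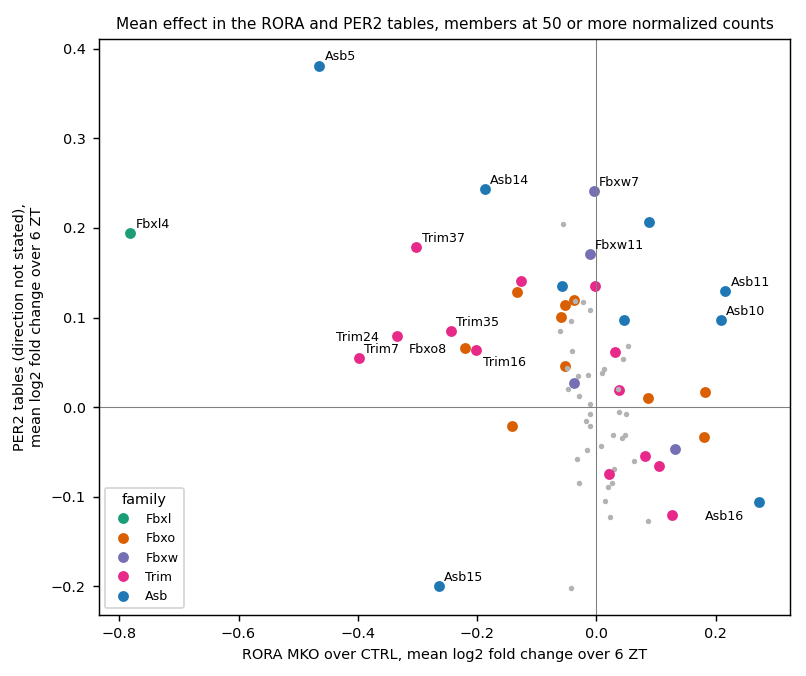
Points are members with at least 50 normalized counts, placed by their mean log2 fold change over 6 ZT in the RORA tables (horizontal, MKO over CTRL) and in the PER2 tables (vertical, direction not stated). Coloured points are called in at least 1 set and grey points in neither; Fbxl4 and Asb5 lie far to the left, and Fbxw7 and Fbxw11 lie above the origin with a RORA mean near zero.

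A gene was taken to differ between the knockouts only if both the difference and the sum of its weighted means passed, so that the result holds whichever way the PER2 tables run. This was so for 12 of 100 members (11.2% of all 11328 genes). Fbxl4 (adjusted p = 3.27e-35), Trim7 (6.93e-08), Trim24 (4.22e-05) and Asb16 (7.12e-05) had the larger effect in RORA. Their mean sizes were 0.78, 0.40, 0.33 and 0.27 in RORA and 0.19, 0.054, 0.08 and 0.11 in PER2. Fbxw7 (3.8e-06) and Fbxw11 (1.81e-05) had the larger effect in PER2, with mean sizes of 0.24 and 0.17 there. The other 6 were Trim35, Fbxo31, Fbxo45, Fbxo8, Trim26 and Trim67, of which Trim26 was lost without ZT20 (adjusted p = 0.0675), Fbxo8 without ZT0 (adjusted p = 0.0555) and Trim67 without ZT0, ZT4, ZT16 or ZT20 (0.122, 0.0663, 0.126 and 0.629). Asb5 did not pass (adjusted p = 0.272), with sizes of 0.46 in RORA and 0.38 in PER2. RORA fold changes appear shrunken, which can understate their size.

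Other parts of the ligase machinery were counted in the same fits, in which 18.9% of all genes were higher and 19.3% lower in RORA MKO. Of 34 cullin-RING core genes, 7 were higher and 13 lower in RORA MKO, with a median of -0.018. All 34 had a mean normalized count of at least 62.6, and 53% of all genes at 50 or more were called. Cul1, the scaffold of the F-box ligases, averaged -0.13 ± 0.049 and Cul4a 0.21 ± 0.034. Cops7a and Cops4, subunits of the signalosome, the complex that removes NEDD8 from cullins, averaged -0.19 ± 0.048 and -0.10 ± 0.042. Of 27 ubiquitin-conjugating enzymes 6 were higher and 5 lower. Ube2r2, which works with F-box ligases, averaged -0.29 ± 0.036, Ube2e1 -0.23 ± 0.087, Ube2d3 -0.13 ± 0.047 and Ube2o 0.27 ± 0.093.

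Of 16 other SOCS-box receptors 3 were higher and 3 lower in RORA MKO, against 18.9% and 19.3% of all genes. Spsb1 averaged 0.90 ± 0.21, at a mean normalized count of 70.6, and Neurl2 0.26 ± 0.08, while Spsb3 averaged -0.40 ± 0.11 and Wsb1 -0.32 ± 0.29. Of 17 BTB-Kelch receptors of CUL3, 4 were higher and 7 lower. Klhl40, a nemaline myopathy gene, averaged 0.31 ± 0.11 and Klhl33 0.25 ± 0.14, and Klhl31 and Klhl30 averaged -0.37 ± 0.091 and -0.29 ± 0.19. Of 8 F-box and TRIM genes under other names 3 were higher and 2 lower, among them Kdm2b at -0.18 ± 0.17, Kdm2a at -0.05 ± 0.03 and the beta-TrCP gene Btrc at 0.065 ± 0.067. In the PER2 tables the same lists had 4 positive and 3 negative of 34 core genes and 7 and 2 of 28 conjugating enzymes. They had 5 and 2 of 16 SOCS-box receptors, 2 and 3 of 17 BTB-Kelch receptors and 2 and 1 of 7 genes under other names. By Stouffer's test, 10.9% of all genes in the PER2 tables were positive and 10.6% negative. Spsb1 averaged -0.46 ± 0.20 there, Kdm2b 0.30 ± 0.18 and Btrc 0.19 ± 0.083, all 3 called, and none of the 4 genes the rule leaves out was called.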

How the data were processed

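Stranded poly-A RNA-seq libraries of mouse muscle were made from total RNA, per the labels. Per the submitters' processing notes, the tools were DESeq2, STAR, Trimmomatic, MultiQC, R 4.1 and bcl2fastq 2.20.0.422, and the builds mm9 and GRCm39. The notes at hand do not say what each served for, and the read counter and any use of strand are not given. Fbxl12os, antisense of Fbxl12, is uncertain for that reason.

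Only the authors' comparisons, 1 table per knockout and ZT, were used. Per the file headers the 6 RORA tables hold p-values, adjusted p-values and log2 fold changes with errors, beside a mean normalized count (a signal level, the same in each). The 6 deposited PER2 tables hold p-values, adjusted p-values, a likelihood ratio score and log2 fold changes with no error and no stated direction, beside a mean log2 CPM (the same in each). Levels through the day could therefore not be described. Depth per library is unknown, so precision is that of the deposited errors and p-values. The deposited RORA log2 fold change over its error was 0.90 times the z of its p (median over z above 3), as with shrunken values.

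RORA means over ZT were tested by inverse-variance weighting, PER2 means by Stouffer's sum of signed z, change with ZT by Cochran's Q (5 degrees of freedom), and the difference between knockouts by the larger p of the weighted difference and sum. PER2 errors for the last 2 were derived by dividing each absolute log2 fold change by the square root of the deposited score, except that 2 values with a score near 0 took the median error of their gene's other ZT. All p-values were two-sided normal or chi-square, adjusted by Benjamini-Hochberg over all genes of a table, with calls under 0.05. Printed means ± SD are over 6 ZT. Single-library count models were not possible with these tables. Fits were tested on simulated data. The members, lists and tests were chosen with earlier results of these data known. Genes were named if their role in muscle or the clock was known, or as those with the highest and lowest called means, the smallest adjusted p of Q, or the smallest adjusted p between knockouts. Of each other list up to 4 genes with the smallest adjusted p of the RORA mean were named. Fbxo9, Fbxo34, Fbxo36, Fbxo38, Fbxw2, Trim26, Trim33, Trim34a, Trim41, Fbxl5, Fbxl16 and Asb1 were named after their values had been seen. The totals count every member, of which 1 is not reported here by itself and is left out of the heat map and the scatter plot. Transcript lengths, from GENCODE M21 on GRCm38, served for levels per kilobase and the length trend only. Alternatives were another way of combining, a minimum level, median centring, each ZT left out and a stricter threshold. Analyses used Python 3.11.15, NumPy 2.4.6, pandas 2.3.3, SciPy 1.17.1, matplotlib 3.10.9 and, for limma 3.58.1, R 4.3.3.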

Additional observations from a re-analysis of the deposited data

Results flagged for a closer look

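The RORA effect differed between ZT for 14 members by Cochran's Q (Benjamini-Hochberg adjusted over all genes), and these are the results that ask for a closer look. For Trim7 the adjusted p was 0.000123, for Fbxo40 0.000716, for Fbxo3 0.001 and for Trim72 0.00328. For Asb14 it was 0.00504, for Asb4 0.0055, for Trim55 0.00889 and for Fbxo31 0.0109. For Asb17 and Trim67, both at mean normalized counts under 10, it was 0.00178 and 0.00411. Without ZT12 the value of Asb17 was 0.399, without ZT8 that of Trim67 was 0.939, and on z from the deposited p they were 0.272 and 0.0736.

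Trim55, a titin-binding ligase, had authors' deposited values of 0.088, 0.11, -0.11, 0.033, 0.08 and 0.023 at ZT0 to ZT20, below zero at ZT8 alone, and without ZT8 its adjusted p of Q was 0.806. Trim33 had an adjusted p of 0.0156, with authors' deposited values of 0.018, 0.043, -0.20, -0.13, 0.08 and -0.18, lowest at ZT8 and ZT20, and without ZT8, ZT16 or ZT20 its adjusted p was 0.0723, 0.0588 or 0.0589. Asb5 stayed below zero at every ZT, and its adjusted p of 0.0189 was 0.198 without ZT0 and 0.171 without ZT4. Trim28, a corepressor of KRAB zinc finger proteins, had an adjusted p of 0.0416 and authors' deposited values of -0.02, 0.056, -0.11, 0.056, 0.032 and 0.11, lowest at ZT8 and highest at ZT20. Its adjusted p of Q was 0.548 without ZT8, 0.191 without ZT20 and 0.356 with a cosine of 24 h. Fbxl5, the iron-sensing receptor of IRP2, had an adjusted p of 0.0488 and authors' deposited values of -0.074, 0.023, -0.083, -0.04, 0.099 and 0.007, highest at ZT16. Of the 14 adjusted p-values, that of Fbxl5 was the closest to the threshold, and it was 0.0518 to 0.531 without any 1 of ZT0, ZT4, ZT8 and ZT16.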

How the results depend on the processing

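No paired analysis was possible because the tables hold comparisons of groups and no values per library. The counts below stand without the share of all genes called under the same setting. They show how far a count moved and do not compare the members with other genes. The count of 36 members called on the RORA mean kept within 1.5 times under every alternative: 48 with Stouffer's sum, 28 with limma on the 6 values, 34 with a minimum count, 36 after centring, 29 without ZT0 and ZT20, and 33 to 37 with each ZT left out (19 to 24 lower, 12 to 16 higher). The count of 14 members changing with ZT was 8 with a cosine of 24 h, 5 without ZT0 and ZT20 (an alternative chosen after seeing the data) and 7 to 14 with each ZT left out, lowest without ZT8. The 24 PER2 members were 8 with limma on the 6 values (7 positive, 1 negative), 12 without ZT4 and ZT12 (9 positive, 3 negative) and 14 to 25 with each ZT left out (11 to 19 positive, 2 to 6 negative), with 14 without ZT4 and 15 without ZT12. With the trend on length and GC content removed, also chosen after seeing the data, 25 were called, with 3 negative. The 12 members differing between knockouts were 27 with Stouffer's z, which compares strength of evidence and not size, and 10 to 13 with each ZT left out. At an adjusted p under 0.01 the RORA tables called 18 members at ZT4 and 19 at ZT8, and those of PER2 called 1 at ZT0, 2 at ZT4, 1 at ZT8 and 1 at ZT12. The other ZT and the share of all genes at this threshold are not given here. The drop in members therefore cannot be set against the whole table. The cause of these changes in count was not tested. Limma also lost the RORA calls of Asb4, Asb8, Fbxo40, Trim54, Trim55, Trim25, Fbxo3, Fbxo9 and Fbxw2. Among the members given values here, no called mean changed sign under these alternatives. Depth, unknown here, limits the 30 RORA members below 50 normalized counts most.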

Other observations

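Asb1 lies on chromosome 1 with 1 protein-coding gene between it and Per2 in the RefSeq order, and Asb18 with 17. In the PER2 tables Asb1 averaged 0.14 ± 0.13 (SD, n = 6 ZT; Stouffer's test, adjusted p = 0.00165) and Asb18 0.12 ± 0.13 (adjusted p = 0.221). In the RORA tables Asb1 averaged -0.058 ± 0.085 (adjusted p = 0.0556), and was called after centring, with a minimum count and without ZT0 or ZT12 (0.0428, 0.0402, 0.0209 and 0.0168). Fbxl22 lies on chromosome 9 with 12 protein-coding genes between it and Rora.

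Other PER2 members called on the mean were Fbxl16 at 0.37 ± 0.41, Fbxo38 at 0.12 ± 0.065 and Fbxo9 at 0.11 ± 0.071, all positive, with adjusted p-values of 0.0105, 0.0258 and 0.00327. In the RORA tables Fbxl16 and Fbxo38 averaged 0.071 ± 0.13 and -0.037 ± 0.052 and were not called. In the PER2 tables Fbxo38, Fbxo9 and Asb1 lost their calls without ZT4 and ZT12 (adjusted p = 0.31, 0.154 and 0.266), and Fbxl16 without ZT12 or ZT20 (0.132 and 0.103).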
